A study of Mus musculus with 8 samples.

Results

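The population described is the spleen classical dendritic cells of 4 mice, isolated by fluorescence-activated sorting. Its members are the 4 arrays whose titles name spleen classical dendritic cells, out of 8 arrays in all, and each array holds the cells of 1 mouse. The mice were 8 weeks old and carried Cx3cr1-gfp/+, in which 1 allele of the fractalkine receptor gene carries green fluorescent protein. The other 4 arrays hold bone marrow myeloid dendritic cells of the same animals, with the same genotype and age. Their values are set beside those of the spleen arrays. They also enter the choice of probe set, the test for differences between mice and a single comparison of the tissues. No treatment other than killing with carbon dioxide is named, and the sorting markers are not stated in the labels used here. Labelled cDNA was made from between 100 pg and 2 ng of RNA and read on an Affymetrix mouse whole-transcript array. Values are deposited probe set intensities on a linear scale, group values are geometric means over the 4 spleen arrays, and the SD is of log2 intensity (n = 4 mice). Intensity depends on the probes as well as on the RNA, so an order of genes by intensity is an order of array signal and not of transcript number.

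Classical dendritic cells take up antigen, cut it into peptides and display these on MHC molecules to T cells. In the mouse spleen they fall into a cDC1 subset, which carries Xcr1 and Cd8a and presents antigen from dead cells to cytotoxic T cells, and a cDC2 subset, which carries Sirpa, Cd4 and Esam and presents mainly to helper T cells. Both arise under the growth factor receptor Flt3 and share the integrin Itgax and the transcription factor Zbtb46.

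The labelled population was checked first against its markers. Itgax, the CD11c integrin chain used to define dendritic cells, gave intensities of 8588, 8658, 8773 and 7749 in spleen replicates 1 to 4. Flt3 gave 4402, 4143, 4433 and 3421, lowest in replicate 4 and close together in the other 3. Zbtb46, a factor of the classical dendritic cell lineage, gave 565, 586, 519 and 425. Both subsets were present by their markers. The cDC1 chemokine receptor Xcr1 gave 1559, 1651, 976 and 2481, and Cd8a gave 560.3, 587, 419 and 489.6. Of the cDC2 markers, Cd4 gave 1521, 1200.2, 1553 and 1091, and Esam, an adhesion molecule of the Notch-dependent cDC2 cells, gave 474, 498, 449 and 334. All 7 labelled markers were above background in every spleen array.

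Background was set for each array as the 99th percentile of the 1190 olfactory and vomeronasal receptor genes, which dendritic cells are not known to use. It lay at 154, 159, 138 and 165 in spleen replicates 1 to 4, and a gene counted as above background where all 4 arrays exceeded it. Of 19938 genes, 9150 (45.9%) did so. A gene just over this limit need not be expressed, since Hnf4a, a liver transcription factor, passed it at 171.

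Genes of the shared and subset lists were nearly all above background. Of 15 measured genes shared by classical dendritic cells, 14 were above background, led by the MHC class II chain H2-Ab1 at 14678 (SD 0.026). Of 16 cDC1 genes, 15 were above background, the exception being the integrin chain Itgae at 140.3. Wdfy4, which cDC1 cells need for cross-presentation, was the brightest of them at 5485. All 18 measured cDC2 genes were above background, led by Cd7 at 8397 and Sirpa at 5429.5. Of 16 genes of migratory and mature dendritic cells, 13 were above background. Cd86, a ligand that costimulates T cells, stood at 1860.1 and the lymph node homing receptor Ccr7 at 894, while the chemokine genes Ccl22 (136) and Ccl17 (155) were not above background.

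Lists for other cell types were read beside the 45.9% of all genes, and no intensity on these arrays was 0. None of 9 erythroid and none of 10 keratinocyte genes was above background. Of 14 T cell genes, 3 passed, with Cd5 brightest at 600.3 and the T cell receptor chain Cd3e at only 206. Of 13 NK cell genes, 3 passed, with Klrd1 brightest at 1818, while Ncr1 (48.0) and Gzma (91.7) stayed within the background. Of 16 B cell genes, 9 passed, among them Cd22 at 1933, Ms4a1 at 315, Pax5 at 292 and Cd79a at 205, whereas Ighm at 147 and Cxcr5 at 67.1 did not. Of 19 neutrophil genes, 4 passed, and their summed intensity was 2915 to 3762 in the spleen arrays against 25738 to 34373 in the bone marrow arrays. Of 18 macrophage genes, 10 passed, led by Treml4 (3049.7) and Adgre1 (1634), while Cd163 (116) and Cd5l (95.8) did not. Of 11 classical monocyte genes, 6 passed, led by Plac8 (6507), Lyz2 (3239.7), Csf1r (2600.1) and Ms4a4c (2559), while F13a1 (84.7) did not. Of 13 plasmacytoid dendritic cell genes, 7 passed, with the defining marker Siglech at 218. The B cell (56.2%), macrophage (55.6%), classical monocyte (54.5%) and plasmacytoid (53.8%) lists lay somewhat above the 45.9% of all genes. With so few genes per list these shares are near that of all genes, and nothing is read from them. Of 9 plasma cell genes 4 passed, of 17 stromal and endothelial genes 5, of 11 hepatocyte genes 1 and of 11 basophil and mast cell genes 1, which was Kit. In bulk samples, fewer cells of a type and less RNA per cell cannot be told apart, and the part of other cells in the levels below was not tested.

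Surface receptors were described over 695 measured genes in 15 families, of which 300 (43.2%) were above background, beside 45.9% of all genes. Their median intensity was 140, beside 148 for all genes. The brightest was Cd74, the invariant chain that escorts MHC class II through the cell, at 12833, 12369.9, 12607 and 12507 (SD 0.022), and it ranked first in every array. Next came Ly6e, a small surface protein anchored by a lipid, at 8737 (SD 0.12), Itgax at 8432 (SD 0.082) and Cd7, an immunoglobulin-like protein also carried by T and NK cells, at 8397 (SD 0.060). These last 3 genes exchanged places between arrays, so their order is not resolved. Itga4, an integrin chain that binds Vcam1, stood at 7505, the phosphatase Ptprc (CD45) at 7224, and the signalling chain Fcer1g at 6191. The adhesion receptor Adgre5 (CD97) stood at 6051 and the tetraspanin Cd53 at 5491. The 10th place was held by Sirpa, the receptor for the "do not eat me" signal Cd47, with 6039, 5891, 5875 and 4158 in replicates 1 to 4. The first 3 arrays lay close together and replicate 4 lay below them, so that Sirpa ranked between 8 and 14 among surface receptors.

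**Figure D1:**
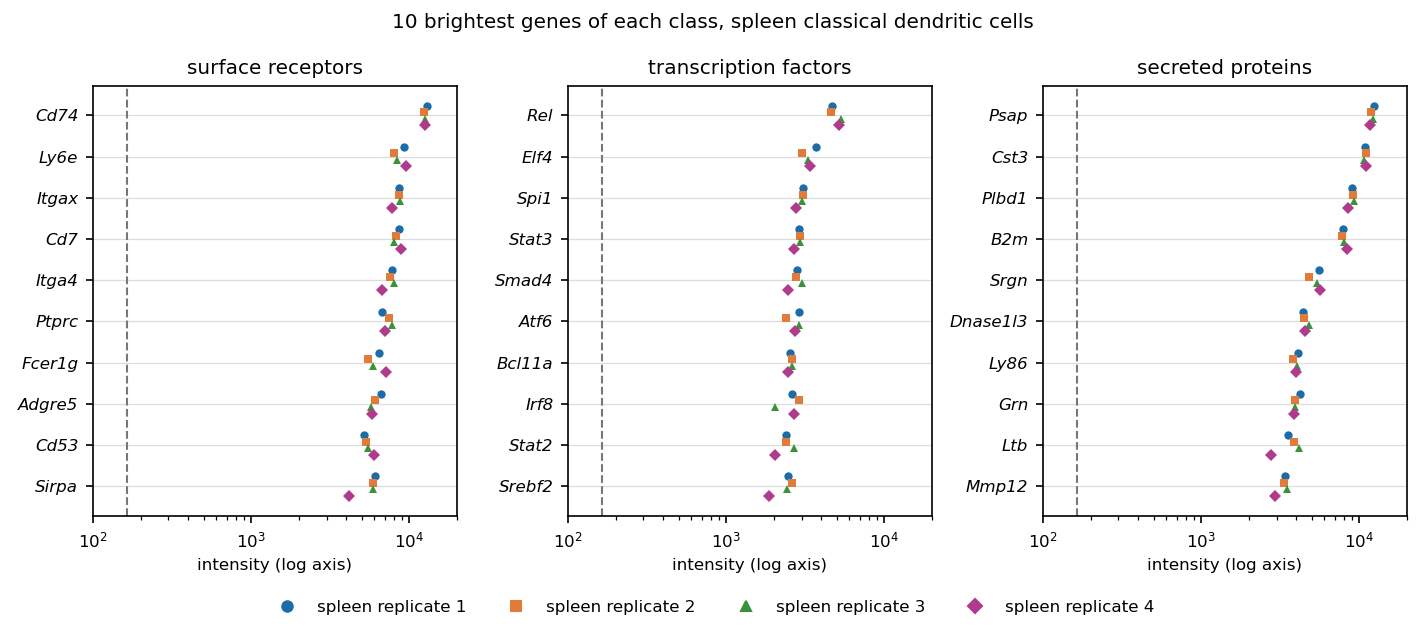
Intensity (log axis) of the 10 brightest surface receptors, transcription factors and secreted proteins in each of the 4 spleen arrays, 1 symbol per replicate; the dashed line is the highest of the 4 background limits, 165. Points of a gene overlap for most genes, while Sirpa, Ltb and Srebf2 have their lowest point in replicate 4 and Irf8 in replicate 3.

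Among the surface receptor families, the Toll-like receptors, which sense microbes, had the largest share above background. Of 12 Toll-like receptor genes, 11 passed. Tlr1, which recognises bacterial lipopeptides together with Tlr2, was brightest with 3272, 2994, 3559.9 and 3536. The DNA sensor Tlr9 stood at 2467 and Tlr13, which recognises bacterial ribosomal RNA, at 1555. The double-stranded RNA sensor Tlr3 stood at 930.3 and the single-stranded RNA sensor Tlr7 at 894. The lipopolysaccharide receptor Tlr4, at 74.6, was the 1 member not above background. Cd180, a Toll-like receptor relative without a signalling domain, stood at 2012.

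C-type lectins, which bind sugars and dead cell remnants, were above background for 28 of 68 members. Cd209a, a DC-SIGN homologue, led with 4233, 3969, 4076 and 3854 (SD 0.058). The beta-glucan receptor Clec7a stood at 1885 and Clec9a, the cDC1 receptor for actin of dead cells, at 1043. Paired receptors of the Siglec, CD300, Lilr and Trem families were above background for 25 of 31 members. Their brightest was the adaptor Tyrobp (DAP12), with 5267, 5327, 5312 and 5183 and an SD of 0.018, followed by Cd300c2 (3769.8) and Treml4 (3049.7). Of 14 Fc receptor genes, 5 passed, including the inhibitory IgG receptor Fcgr2b at 1333, while the high-affinity Fcgr1 at 132 did not.

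Of 54 cytokine receptor genes, 30 were above background. Il6st, the gp130 chain shared by receptors of the interleukin 6 family, gave 4818, 4134, 4699 and 3734. The interferon gamma receptor chain Ifngr1 stood at 4266, and Kit, the stem cell factor receptor, gave 3979, 3634, 4116 and 2941. Csf1r, the receptor for macrophage colony-stimulating factor, stood at 2600.1. Of 23 chemokine receptor genes, 10 passed. Cxcr4, which retains cells near Cxcl12, led with 3850.1, 2351, 3573 and 3385 (SD 0.32), and replicate 2 held the lowest value. Xcr1 (1580.1), Ccr7 (894) and Cx3cr1 (768) followed. Cx3cr1 is the gene that carries the reporter allele in these mice. Of 26 integrin chains, 13 passed, with Itgb2 at 3195 as the beta chain that pairs with Itgax. Of 42 costimulatory and SLAM family genes, 22 passed. Of 179 G protein-coupled receptors, 58 passed, including the short-chain fatty acid receptor Ffar2 at 2465 and the oxysterol receptor Gpr183, which positions cDC2 cells in the spleen, at 1646.

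Notch, plexin, neuropilin and Eph receptors had the lowest share above background among the receptor families, at 12 of 47. Plxnc1, a semaphorin receptor, led with 3977, 4154, 4285 and 3716 (SD 0.089). Notch2, which splenic cDC2 cells need, stood second with 3507, 3433, 3404 and 2358, again lowest in replicate 4. Of 28 TNF receptor genes, 15 passed, with Tnfrsf1b at 1500.0 and Cd40, the receptor for help from T cells, at 957.

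**Figure D2:**
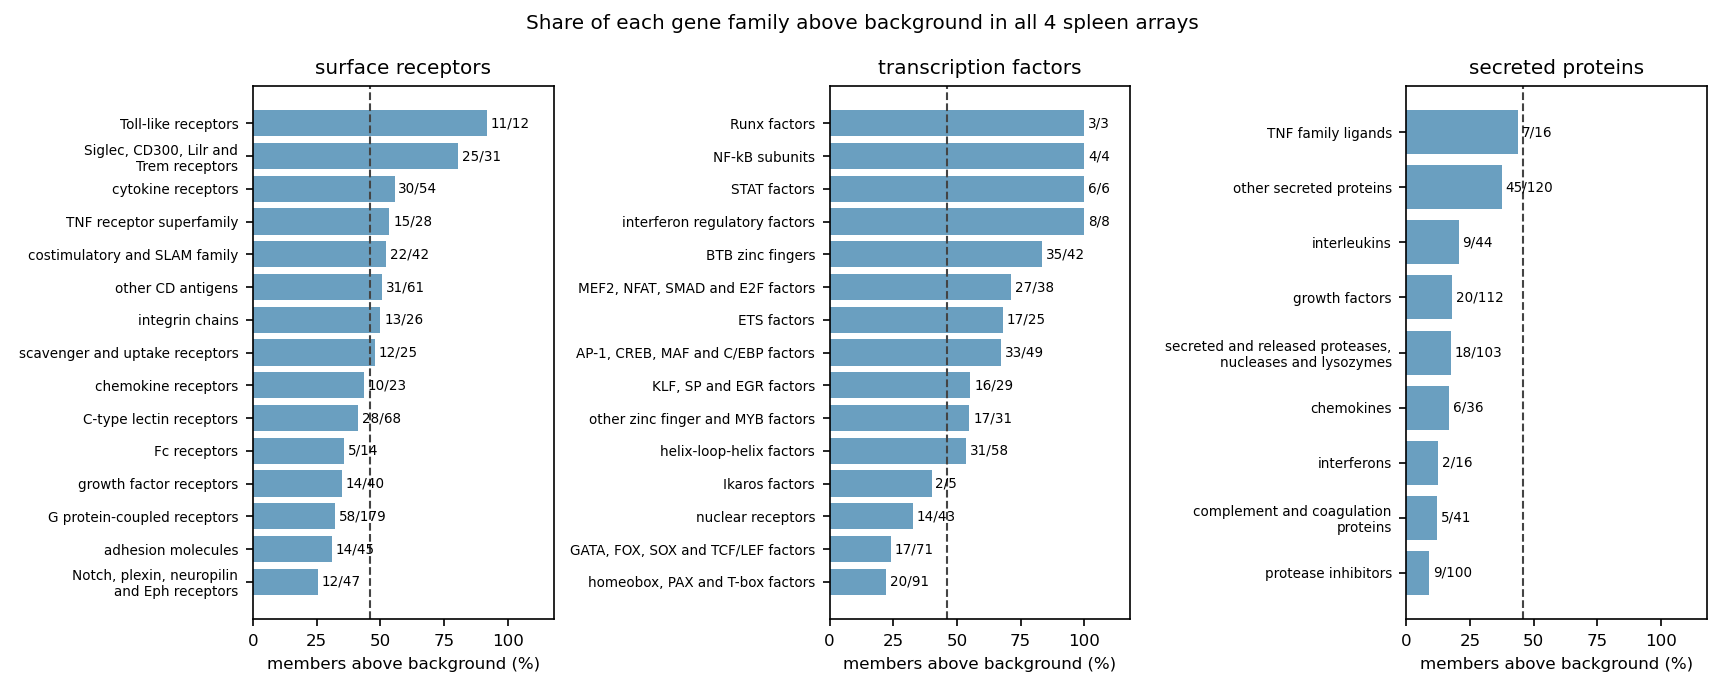
Percent of the measured members of each family above background in all 4 spleen arrays, with the counts beside the bars; the dashed line is the 45.9% of all genes. Toll-like receptors (11/12) lead the surface receptors, 4 transcription factor families are complete, and no family of secreted proteins reaches the dashed line.

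Transcription factors were described over 503 measured genes, of which 250 (49.7%) were above background, with a median intensity of 176. Rel, the c-Rel subunit of NF-kB, was brightest in every array with 4679, 4574, 5299.5 and 5169 (SD 0.10). The ETS factor Elf4 followed at 3325 (SD 0.12), and Spi1, which encodes PU.1, a factor that dendritic cells need for their development, gave 3054, 3057, 3027 and 2744. Elf4 and Spi1 exchanged ranks 2 and 3 between arrays. The place of Elf4 rests on its brightest probe set, since the mean of its probe sets was 9.12 in log2 intensity against 11.70 for that one. Stat3, which carries the Flt3 signal, stood at 2848, and Smad4, the shared partner of TGF-beta signalling, at 2758. Atf6, a sensor of endoplasmic reticulum stress, stood at 2719.8 and Bcl11a at 2554 (SD 0.043). Irf8, which cDC1 cells require, gave 2602, 2869, 2026 and 2679. Its lowest value lay in replicate 3, and its rank among transcription factors ran from 5 to 16. Stat2 (2358) and the sterol sensor Srebf2 (2313) completed the first 10.

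All measured members of 4 factor families were above background. These were the 8 interferon regulatory factors, the 6 STAT factors, the 4 NF-kB subunits and the 3 Runx and Cbfb genes. After Irf8, the interferon regulatory factors were led by Irf5 (2025), Irf2 (1640.3) and Irf7 (1577), and Irf4, which cDC2 cells use, was the dimmest of the 8 at 578. Among NF-kB subunits, Relb, which a part of the cDC2 cells needs, stood at 1649.6 and Rela at 625. Runx3 gave 1955, 1622, 1809 and 1983. Of 42 BTB zinc fingers, 35 passed, but at moderate levels, with Bcl6 at 727 and Zbtb46 at 520.0. Of 49 AP-1, CREB, MAF and C/EBP factors, 33 passed, and Batf3, the partner of Irf8 in cDC1 cells, stood at 1760.1. Of 25 ETS factors, 17 passed.

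Developmental factors lay at the other end. Of 91 homeobox, PAX and T-box factors, 20 were above background, led by Satb1, a chromatin organiser, at 1990.4. Of 71 GATA, FOX, SOX and TCF/LEF factors, 17 passed, led by Foxn3 at 1232. Of 43 nuclear receptors, 14 passed, led by Nr4a1 at 1915. Id2, an inhibitor of helix-loop-helix factors that cDC1 cells need, stood at 1242, and Tcf4, the factor of plasmacytoid dendritic cells that Id2 opposes, at 800.0. Klf4, which a subset of cDC2 cells needs, stood at 338.

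Secreted proteins were described over 588 measured genes, and 121 (20.6%) were above background, beside 45.9% of all genes. Their median intensity was 95.8. With background at the 95th percentile of the olfactory and vomeronasal receptor genes, 264 were above it. The 45.9% of all genes belongs to the 99th percentile and is not the share to set beside the 264. Psap, the precursor of the saposins that help to break down glycolipids, gave 12384, 11879, 12171 and 11589. Cst3, the cathepsin inhibitor cystatin C, gave 10793, 10940.0, 10769.8 and 11083 with an SD of 0.019. Plbd1, a phospholipase-like protein, stood at 8925, and B2m, the light chain of MHC class I, at 7989.5. Srgn, the granule proteoglycan serglycin, stood at 5356 and Dnase1l3, a nuclease that digests DNA of dead cells, at 4547. These 6 genes kept the same order in each of the 4 arrays. Below them stood Ly86 (3977), which binds Cd180, and Grn (3974), the lysosomal protein progranulin. Ltb, the lymphotoxin chain that maintains lymphoid tissue, gave 3523, 3865, 4136 and 2782, lowest in replicate 4. Mmp12, the macrophage elastase, stood at 3283.

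Of 44 interleukin genes, 9 were above background, which is 20.5% beside the 20.6% of all secreted proteins. Il1b, a fever cytokine stored as a precursor, was brightest with 2493, 2273, 2864 and 2392 and Il18 stood at 539. Il12b, the chain shared by interleukins 12 and 23, had a mean of 183 but did not exceed the limit in all 4 arrays. Of 36 chemokine genes, 6 (16.7%) passed, namely Ccl6 (1300.2), Ccl5 (1118), Cxcl16 (900.4), Cxcl9 (876), Ccl3 (842) and Ccl9 (241). Of 16 TNF ligands, 7 (43.8%) passed, with Tnf at 372. Of 112 growth factor genes, 20 passed, led by Tgfb1 with 3459, 2965, 2788 and 3035. Of 41 complement and coagulation genes, 5 passed, led by Cfp, the complement stabiliser properdin, with 2834, 2858, 2848 and 2069.8. Of 100 protease inhibitors, 9 passed.

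The median SD of genes above background was 0.135 in log2 intensity, and the 90th percentile of the SD was 0.247. Pearson's r between spleen arrays over genes above background, a correlation across genes and not across samples, was 0.984 to 0.987 among replicates 1 to 3 and 0.975 to 0.977 between each of them and replicate 4. Replicate 4 also held the lowest of the 4 values for 38.8% of genes above background, while replicate 3 held the highest for 37.9%.

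The genes that varied most between the 4 spleen arrays were those with an SD of at least 0.5 among genes above background. There were 30 of 9150 (0.328%), the last inside the limit at an SD of 0.5001 and the first outside at 0.4973. The spleen values chose them, so their spread is a description with no test. Of the 30, 3 were surface receptors, 1 was a transcription factor and 2 were secreted proteins, classes that make up 3.28%, 2.73% and 1.32% of genes above background. Of the 30, 6 had symbols of small RNAs, predicted genes and the like and are not named. Without replicate 4, only 14 genes reached the same SD, and 9 of the 20 named ones were then still among the 20 most variable.

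In 9 of the 30 genes, replicates 1 and 3 both lay above replicates 2 and 4, an order that 24.2% of all genes above background showed, so this count lies near the share of all genes. Of the 9150 genes above background, 2216 had this order in spleen, 1350 in bone marrow and 236 in both tissues. Nothing is read from the 236. Hspa1a, the inducible heat shock protein HSP70, varied most, with 3994, 1503, 4592 and 836 in spleen replicates 1 to 4 (SD 1.17). Whether its probes also read the near-identical Hspa1b was not tested. The bone marrow arrays of the same mice gave 3402, 1819, 3982 and 1209, so mice 1 and 3 were high in both tissues. Its cochaperone Dnajb1 gave 1074, 602, 1051 and 472 in spleen and 669, 651, 789 and 684 in bone marrow. The bone marrow values of Dnajb1 lay close together. Ptgs2, the inducible cyclooxygenase of prostaglandin synthesis, gave 808, 228, 718 and 260.1, and Fosb, an AP-1 factor induced within minutes of stimulation, gave 1234, 498, 1221 and 435. Ptgs2 in the bone marrow of the same mice gave 202, 119, 133 and 128, with mice 1 and 3 again above mice 2 and 4 but within a narrower range. The chemokine Ccl3 gave 1206, 489, 1301 and 657. Fosb and Ccl3 in the bone marrow of the same mice gave 618, 825, 643 and 866 and 1510.4, 1540.4, 1389 and 1958, where mice 1 and 3 were not the high ones.

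Of 17 measured immediate early genes, 10 were highest in replicate 1, beside 22.2% of genes above background, and 10 were lowest in replicate 2, beside 23.8%. The 4 members highest in replicate 3 and the 5 lowest in replicate 4 were smaller shares than the 37.9% and 38.8% of genes above background. Their summed intensity was 19633, 13352, 18426 and 14736 in replicates 1 to 4. Dusp1, a phosphatase that ends MAP kinase signals, gave 5462, 2988, 4963 and 3199. Of 9 heat shock genes, 6 were highest in replicate 3 and 3 in replicate 1, beside 37.9% and 22.2% of genes above background, but the constitutive Hspa8, at 8142, 6797, 7552 and 7147, varied little (SD 0.11). Handling time and sorting order are not stated in the labels, and their part in these values was not tested.

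In 11 of the 30 genes, replicate 4 lay more than 0.5 log2 units below each of the other 3 arrays, as it did in 1.43% of all genes above background. Since the 30 were chosen by their spread, nothing is read from that difference. Mapk11, a p38 MAP kinase, gave 576, 683, 717 and 216. Sesn2, a stress-induced inhibitor of mTORC1 signalling, gave 1353, 1244, 1243 and 481. The glycolytic enzyme Tpi1 gave 1074, 971, 941 and 438 and the glucose transporter Slc2a3 gave 1926, 1649, 1702 and 855. Cyp4f37, a cytochrome P450, gave 408, 394, 571 and 204, Atraid gave 1478, 1182, 1109.6 and 591 and the mitotic kinesin Kif18b gave 499.8, 470.0, 436 and 225. These genes were listed for a low replicate 4, so its distance from replicates 1 to 3 follows from that choice. The bone marrow array of mouse 4 was not lowest for Tpi1, with 1108, 1566, 1348 and 1626, nor for Sesn2, with 506, 642, 629.9 and 833.

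The opposite, replicate 4 more than 0.5 log2 units above the other 3, held for 8 of the 30 genes and for 0.317% of all genes above background. Among the named genes, ND3, a mitochondrially encoded subunit of complex I, gave 339, 530.2, 699 and 1143, and Parvb, a linker between integrins and actin, gave 174, 192, 183 and 379. Hmox1, the haem-degrading enzyme of macrophages, gave 349, 219, 290.0 and 518, and Xcr1 gave the values above, with replicate 4 highest and replicate 3 lowest. The remaining named genes were Fn1, the matrix protein fibronectin, high in replicate 1 at 673, 267, 314 and 214, the inhibitory receptor Pilra at 535, 281, 368 and 662, the tetraspan protein Ms4a7 at 359.9, 196, 340.3 and 486 and the histone H2bc8 at 613, 991, 486 and 1117. In bone marrow, Fn1, Pilra, Ms4a7, Parvb and Hmox1 were all brighter than in any spleen array of the same mouse.

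**Figure D3:**
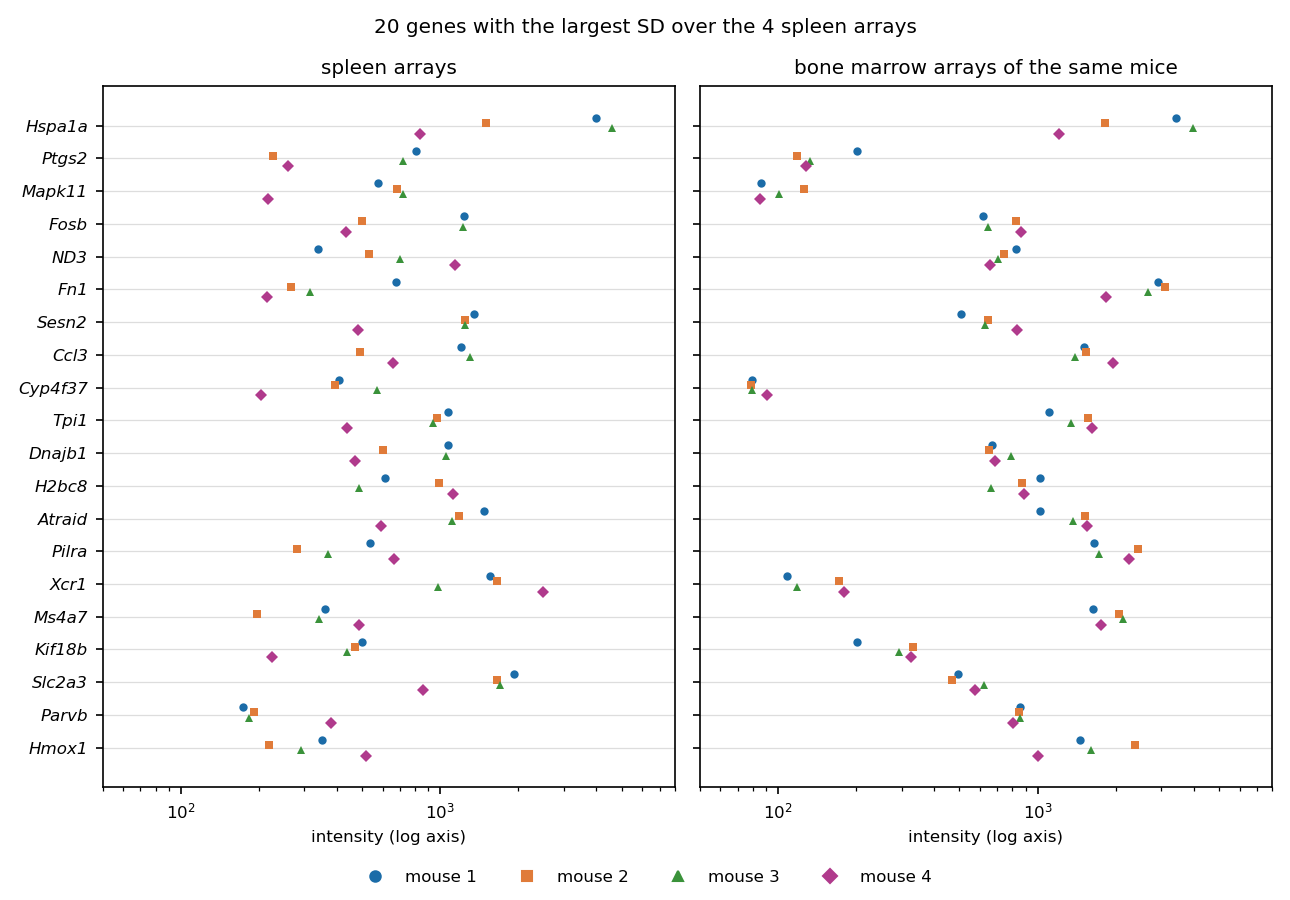
Intensity (log axis) of the 20 named genes with the largest SD over the spleen arrays, in order of SD, in the 4 spleen arrays (left) and the 4 bone marrow arrays of the same mice (right), 1 symbol per mouse. Mouse 4 lies apart on the left for Mapk11, Sesn2, Tpi1 and Slc2a3, and Hspa1a keeps mice 1 and 3 above mice 2 and 4 on both sides.

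The lists of the 2 subsets had different orders over the arrays. Of 16 cDC1 genes, 10 were highest in replicate 4, beside 23.0% of genes above background, and 11 were lowest in replicate 3, beside 15.1%. Of 18 cDC2 genes, 12 were lowest in replicate 4, beside 38.8%, and so were 11 of the 15 shared dendritic cell genes. The geometric mean over the cDC1 genes was 907, 980, 820 and 1075 in replicates 1 to 4, and that over the cDC2 genes was 1333, 1256, 1286 and 1140. Clec9a gave 1018, 988, 868 and 1355 and Tlr3 gave 932, 864, 746 and 1247, both lowest in replicate 3 and highest in replicate 4. Not all members followed. Wdfy4 gave 5968, 6019, 6294 and 4004 and Batf3 gave 1665, 1943, 1949 and 1522, both lowest in replicate 4, and the cDC2 list's Cx3cr1 gave 812, 713, 588 and 1023, highest in replicate 4. With replicate 4 left out, a choice made after seeing the values, the same 11 of 16 cDC1 genes were lowest in replicate 3, beside 23.2% of genes above background. Lists that lay mostly within the background did the same without replicate 4, with 9 of 11 hepatocyte, 8 of 9 erythroid and 11 of 17 stromal and endothelial genes lowest in replicate 3, the array with the lowest background limit. The part of that lower background in the cDC1 count was not tested. A shift in the share of cDC1 cells and a shift of RNA per cell cannot be told apart here.

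**Figure D4:**
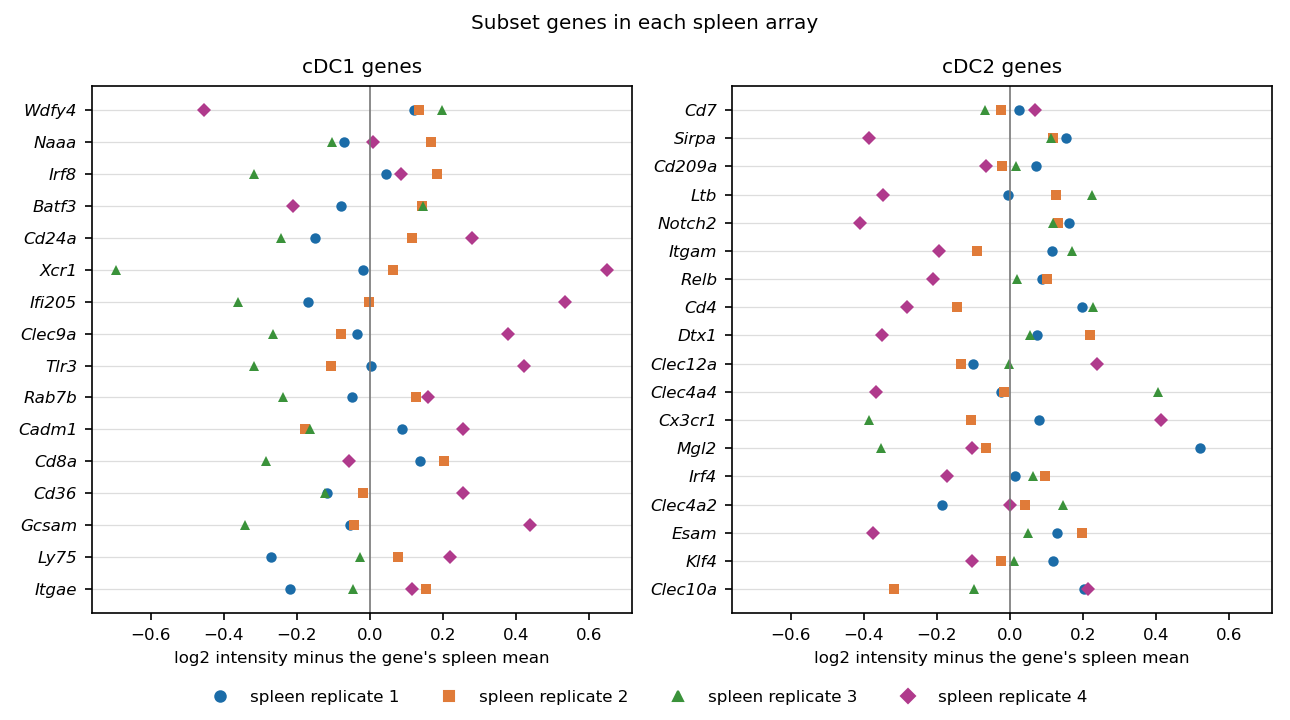
Deviation of log2 intensity from the gene's spleen mean for 16 cDC1 genes (left) and 18 cDC2 genes (right), from brightest to dimmest, 1 symbol per spleen replicate. Replicate 4 lies right of 0 for most cDC1 genes and left of 0 for most cDC2 genes, with Wdfy4, Batf3, Clec12a and Cx3cr1 among the exceptions.

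Platelet genes also set replicate 4 apart. All 9 measured members were highest there, beside 23.0% of genes above background, but only 3 of the 9 were above background in all 4 arrays. For the 9, the summed intensity was 1462, 1570, 1497 and 3572 in replicates 1 to 4. The platelet chemokine Ppbp gave 99.6, 139.8, 111 and 1279.9 and Pf4 gave 65.9, 90.2, 81.5 and 575, so that both were above background in replicate 4 only. Ppbp in the bone marrow of the same mice gave 135, 160.1, 1233 and 124, where mouse 3 and not mouse 4 was highest. Whether platelet RNA bears on the other differences of replicate 4 was not tested.

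Genes that differed between mice in both tissues alike were tested over all 8 arrays, with the tissue as a covariate. Of 19938 genes, 7 (0.0351%) passed limma's F-test of the 3 mouse coefficients after Benjamini-Hochberg adjustment. In the same limma test 573 had an unadjusted p under 0.05, a smaller share of all genes than the 0.05 that chance alone gives. The smallest adjusted p in limma belonged to Xist, the RNA of the inactive X chromosome, at 2.2e-08. Xist gave 42.1, 44.4, 40.4 and 5339.7 in spleen replicates 1 to 4 and 43.6, 49.2, 38.2 and 3400.2 in bone marrow. The genes Eif2s3y, Uty and Kdm5d of the Y chromosome gave the opposite order, with Eif2s3y at 406, 491, 533 and 26.6 in spleen (limma adjusted p 5.2e-08). Uty had a limma adjusted p of 8.8e-07 and Kdm5d of 4.2e-06. Xlr, an X-linked lymphocyte gene, gave 124, 98.0, 82.5 and 365 in spleen (limma adjusted p 0.00013). The labels give no sex for any mouse, and mouse 4 stood apart in these genes in both tissues. In mouse 4 alone, in both tissues, Xist was above the background limit and Eif2s3y, Uty and Kdm5d were below it. For the other differences of mouse 4, sex cannot be told apart from its other properties. Without mouse 4, 0 genes passed in limma, the 5 genes above included. In that limma fit 706 had an unadjusted p under 0.05, again a smaller share of all genes than 0.05.

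The other 2 genes were Hspa1a, with a limma adjusted p of 0.002, and the small nucleolar RNA Snord14e, with a limma adjusted p of 0.037, which was named after its values were seen. Snord14e gave 4699, 2705, 4643 and 2562 in spleen and 3850.0, 1739, 4208 and 1937 in bone marrow, again with mice 1 and 3 above mice 2 and 4. Snord14e lies within the gene Hspa8. With the arrays centred on their medians, the limma adjusted p was 0.063 for Hspa1a and 0.12 for Snord14e. Without mouse 4, it was 0.069 for Hspa1a.

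**Figure D5:**
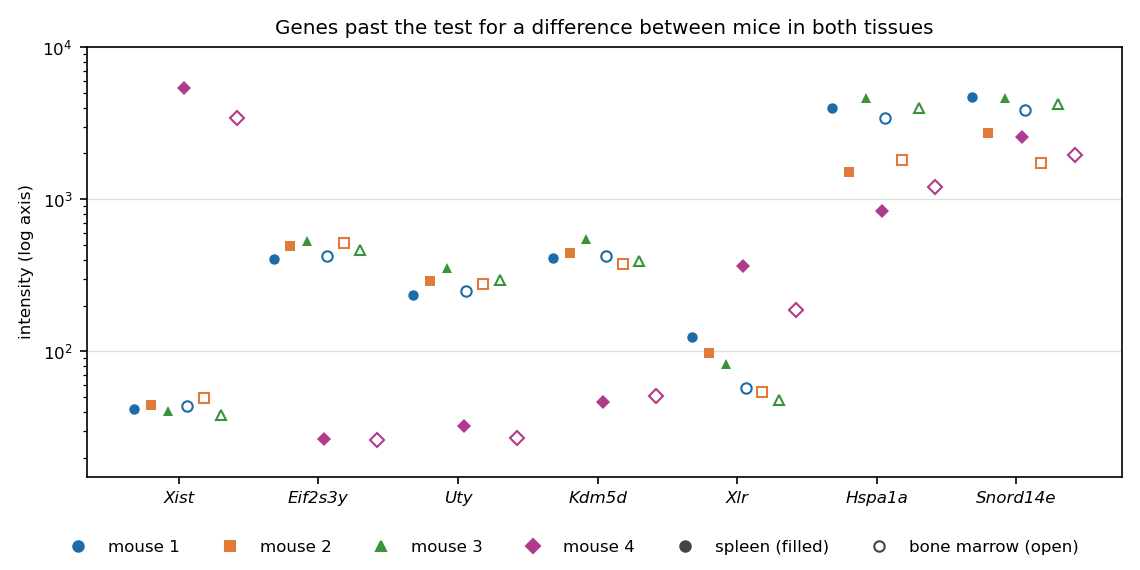
Intensity (log axis) of the 7 genes past limma's test for a difference between mice, in spleen (filled) and bone marrow (open), 1 symbol and colour per mouse. Mouse 4 is far above the others for Xist and far below for Eif2s3y, Uty and Kdm5d, while Hspa1a and Snord14e are high in mice 1 and 3.

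Promoters were read for the genes whose own levels are described above, as the 250 bases before the start in RefSeq's table for GRCm38.p6. Rel is shown as the brightest transcription factor, B2m as a bright secreted protein of antigen display and Hspa1a as the most variable gene. Each of these promoters holds a match to its motif, which most of the bright genes searched did not, so they are not typical examples. Capitals mark a match on either strand to GAGGAAGT, a PU.1 site, in Rel (chr11:23770970-23771219, minus strand), to GAAA, any 2 bases and GAAA again, an interferon response element, in B2m (chr2:122147437-122147686, plus strand), and to GAANNTTC, a heat shock element pair, in Hspa1a (chr17:34972157-34972406, minus strand).
Rel: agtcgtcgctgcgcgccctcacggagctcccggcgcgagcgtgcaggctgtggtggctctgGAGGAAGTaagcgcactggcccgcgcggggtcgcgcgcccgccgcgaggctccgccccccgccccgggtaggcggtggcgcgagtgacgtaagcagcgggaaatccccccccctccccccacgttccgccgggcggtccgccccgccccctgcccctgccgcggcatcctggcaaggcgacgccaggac
B2m: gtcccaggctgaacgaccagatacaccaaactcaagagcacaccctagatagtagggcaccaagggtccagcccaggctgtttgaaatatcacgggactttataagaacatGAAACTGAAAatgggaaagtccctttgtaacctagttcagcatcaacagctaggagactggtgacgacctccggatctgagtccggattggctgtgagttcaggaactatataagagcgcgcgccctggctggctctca
Hspa1a: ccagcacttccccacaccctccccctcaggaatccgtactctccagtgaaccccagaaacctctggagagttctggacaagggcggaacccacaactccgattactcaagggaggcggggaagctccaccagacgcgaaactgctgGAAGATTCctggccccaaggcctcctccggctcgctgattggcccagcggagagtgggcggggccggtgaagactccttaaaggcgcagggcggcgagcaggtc

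These matches are letters in a window and not measured binding. GAGGAAGT occurred in 2.79% of all 27025 genes with a promoter, and in 4 of the 37 among the 50 brightest surface receptors that had one, namely Cd82, Fcrl1, Pirb and Tlr1. It occurred in 2 of 43 among the brightest transcription factors and in 1 of 41 among the brightest secreted proteins. Of genes above background 3.17% had it, and of the 500 brightest genes 3.25%. The interferon response element occurred in 3.46% of all, and in 7 of the 41 among the 50 brightest secreted proteins, namely Apol7c, B2m, Flt3l, Lgals9, Rnase6, Srgn and Tgfbi. It also occurred in 4 of the 37 bright surface receptors and in 2 of the 43 bright transcription factors. Of the 500 brightest genes 4.75% had it, and of the secreted proteins not above background 5.65%. GAANNTTC occurred in 7.73% of all, and in 4 of the 7 heat shock genes with a promoter, namely Hspa1a, Hspb1, Hspd1 and Hspe1. It also occurred in 6 of the 37 bright surface receptors, 1 of the 43 bright transcription factors and 1 of the 41 bright secreted proteins. Dnajb1, which varied with Hspa1a in spleen, had no match in this window. The cyclic AMP response element TGACGTCA was searched too, and occurred in 1.77% of all. Of the 14 immediate early genes with a promoter 2 had it, and of the 41 bright secreted proteins 1.

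A single comparison with the bone marrow arrays places the 3 classes. In limma, 3681 of 19938 genes (18.5%) differed between the populations, 1835 (9.20%) higher and 1846 (9.26%) lower in spleen. This fit, which also gave the class counts below, did not pair the samples of each mouse. With that pairing, 3378 genes differed in limma. Of 695 surface receptors, 117 (16.8%) were higher and 175 (25.2%) lower in spleen. Of 503 transcription factors, 53 (10.5%) were higher and 82 (16.3%) lower. Of 588 secreted proteins, 30 (5.10%) were higher and 95 (16.2%) lower. Among the brightest spleen genes, Dnase1l3 gave 270.0, 291, 229 and 486 in bone marrow and Ltb gave 347, 411, 316 and 549, so neither overlapped its spleen values, while Cd74, with 13352, 13284, 12348 and 12863, and Spi1, with 2508, 3073, 2508 and 2970.4, did overlap theirs.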

How the data were processed

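Expression was measured in 8 arrays, 4 per tissue, and the mice are separate animals per the labels. The authors deposited 1 linear intensity per probe set and array, produced in Affymetrix Expression Console 1.4, as the submitters' processing notes record. How the arrays were background-corrected, scaled and summarized is not stated there, so levels are relative signal. How amplification from little RNA affects the spread was not tested. Arrays have no read depth, and their number limits the precision.

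Probe sets with 1 symbol in the platform annotation of 2016 (21789 of 35556) were kept, the brightest over the 8 arrays per gene, and log2 was taken. A total of 999 genes had more than 1 probe set. The tests used limma 3.58.1 in R 4.3.3 on log2 intensity with Benjamini-Hochberg adjustment over all genes at 0.05, and were checked on simulated data. Tables were made with Python 3.11.15, pandas 2.3.3 and numpy 2.4.6.

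Families, marker lists and the population were chosen with earlier results of these data known. Genes named by rule were the labelled markers, the 10 brightest of each class, the brightest of each family above background and of each marker list, the 20 with the largest SD (leaving out predicted genes, small RNAs, olfactory receptors and antigen receptor segments) and the 5 with the smallest adjusted p of the mouse test; any further gene was picked with its values in view. The replicate numbers pair the samples because they are the same mouse in both tissues per the labels. Alternatives were normalization, probe set choice, the background limit, filters, an intensity trend, the replicate block and leaving out each replicate. Promoters came from RefSeq.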

Additional observations from a re-analysis of the deposited data

Results flagged for a closer look

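Of 181 genes named, 17 had 1 spleen array that lay apart in log2 intensity. Its gap to the nearest other array, divided by the range of the 4 log2 values, exceeded Dixon's 95% critical value. Chance alone exceeds that value in a small share of groups, about 5%, and the genes chosen for their spread or after their values were seen are among those 17. Spleen replicate 4 was the array concerned in 14 of them, with 10 low and 4 high, against 1 each for replicates 1, 2 and 3.

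In replicate 4, Sirpa lay at 4158 against 5875 to 6039 in the other 3 arrays, and Notch2 at 2358 against 3404 to 3507. Both are cDC2 genes. Wdfy4, of the cDC1 list, lay at 4004 against 5968 to 6294, and Spi1, which both subsets use, at 2744 against 3027 to 3057. The complement gene Cfp lay at 2069.8 against 2834 to 2858, Sesn2 at 481 against 1243 to 1353, and Tpi1 at 438 against 941 to 1074. The Y-linked genes lay low there, Kdm5d at 46.8, Eif2s3y at 26.6 and Uty at 32.5, and Xist lay high at 5339.7.

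Parvb lay high in replicate 4 at 379 against 175 to 192. The platelet chemokines lay high there too, Pf4 at 575 against 65.9 to 90.2, and Ppbp at 1280 against 99.6 to 139.8. Elsewhere, Grn was high in replicate 1 at 4223 against 3874 to 3917, Foxn3 low in replicate 2 at 1056 against 1285 to 1318, and the interferon-stimulated gene Ifit3 high in replicate 3 at 1458 against 1262 to 1291.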

How the results depend on the processing

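Of 105 alternative values for 11 counts and shares, 95 lay within 1.5 times of the value given. Leaving out each spleen array in turn changed the number of genes at an SD of at least 0.5 from 30 to between 14 and 51, and the number of the 20 named variable genes still among the 20 most variable was between 9, without replicate 4, and 17. With no filter on dim genes, 88 genes had that SD, and 7 of the 20 named genes remained among the 20 most variable. With background at the 95th percentile, 264 and not 121 secreted proteins were above background. The share of all genes at that limit is not given here. The number of genes with a mouse effect in limma, 7, became 1 where only genes above background in all arrays of 1 tissue were tested, and lay between 0 and 13 when each mouse was left out. Xist, Eif2s3y, Uty, Kdm5d and Xlr were not above background in all arrays of either tissue, so that filter left them out. Leaving out mouse 4 removed the mouse that stood apart in those genes. The cause of the other shifts was not tested. With the mouse as a replicate block, which pairs the samples of each animal, 3378 genes differed between the tissues in limma, against 3681 without it, and 3260 were shared. Of 1448 levels of the named genes under 8 settings, 1439 moved by less than 1 SD. Taking the mean of probe sets moved Elf4, Foxn3, ND3, Wdfy4, Hspa8, Cd47, Hspd1 and Ighm by more, and quantile normalization moved H2-Ab1. The limma adjusted p of Hspa1a ranged from 7e-06 without mouse 1 to 0.069 without mouse 4, and that of Snord14e reached 0.22 with quantile normalization.

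With 4 arrays per tissue, small spreads are poorly estimated. Intensities near the background limit carry probe signal as well as RNA, and dim fold changes are compressed. Levels of different genes are not on a common scale.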

Other observations

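All 21 measured genes of cell division were above background in every spleen array, beside 45.9% of all genes. Mean levels ran down to 175 for Prc1, near the 171 of the liver factor Hnf4a. The list was led by the proliferation marker Mki67 with 1827, 1876, 1616 and 1359.9 in replicates 1 to 4. Cyclin A2, Ccna2, followed with 1133, 993, 918 and 1239. Of the 21, 12 were highest in replicate 2 and 12 were lowest in replicate 4, beside 16.9% and 38.8% of genes above background. Their summed intensity was 12762 to 14924 in the spleen arrays and 7384 to 11479 in the bone marrow arrays.

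All 17 respiratory chain genes were above background, beside 45.9% of all genes, led by the complex III subunit Uqcrh with 5931, 5736, 6173 and 6364. Of these, 11 were highest in replicate 4 and 9 were lowest in replicate 1, beside 23.0% and 22.4% of genes above background. The mitochondrially encoded ND3 was also highest in replicate 4. The level of ND3 rests on its brightest probe set, since the mean of its probe sets was 8.50 in log2 intensity against 9.27. Of 17 interferon-stimulated genes, 15 (88.2%) were above background, beside the same 45.9%. Irf7 led with 1585, 1628, 1608 and 1492 (SD 0.056), and Ifit3 stood at 1318. Of these 17, 9 were highest in replicate 3, beside 37.9% of genes above background, and the chemokine gene Cxcl10 (178) was not above background.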
